A study of Arabidopsis thaliana with 8 samples.

Results

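The myo-inositol oxygenase family of Arabidopsis thaliana has 4 annotated genes, MIOX1 (AT1G14520), MIOX2 (AT2G19800), MIOX4 (AT4G26260) and MIOX5 (AT5G56640). They were chosen by locus, as 4 of the 27197 loci measured, because MIOX4 was higher in carpels of the nga mutant than in wild type. The choice therefore used the nga and wild-type values, and differences between nga and any other group are given for these genes as descriptions, with no test. Each library came from carpel RNA of 15 inflorescences, with the carpels taken manually at floral stages 8 to 13 from Columbia plants grown in long days. The groups were wild type (WT, 2 libraries), the mutant labelled nga 1/2/3/4 (called nga, 3 libraries) and the overexpressor labelled 35S:NGA (3 libraries), in which 35S is the viral promoter that drives expression in most plant tissues. The labels give neither the mutant alleles nor which NGATHA gene the 35S promoter drives, nor whether a line came from 1 transformant. NGATHA genes encode B3-domain transcription factors required for the style and stigma of the carpel.

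Myo-inositol oxygenase opens the ring of myo-inositol and releases D-glucuronate. Glucuronokinase and a UDP-sugar pyrophosphorylase turn glucuronate into UDP-glucuronate, the sugar nucleotide from which plants build pectin and xylan side groups of the cell wall. UDP-glucose dehydrogenase makes the same UDP-glucuronate directly from UDP-glucose, so the oxygenase route and the dehydrogenase route run in parallel. In Arabidopsis, MIOX2 is known as a broadly expressed gene, MIOX4 and MIOX5 are known from flowers and pollen, and MIOX2 and MIOX4 transcripts are known to respond to low sugar and low energy.

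The libraries held 23.1 M to 38.3 M mapped reads and 16737 to 17329 loci at 1 RPKM or more (reads per kilobase of gene model, scaled to the library's mapped reads). As a check of the labels, NGA4 had 0.131, 0.123 and 0.248 RPKM in nga where WT had 3.97 and 3.83, and NGA3 had 102, 120 and 166 RPKM in 35S:NGA where WT had 5.47 and 4.81. NGA1 and NGA2 levels in nga overlapped those in WT, and a lesion within a transcript is not visible in values per gene. WT and the nga libraries 1 and 2 were run on sequencing lane 6, the 35S:NGA libraries 1 and 2 on lane 7, and nga 3 and 35S:NGA 3 on lane 8. As 35S:NGA shares no lane with WT, lane and overexpression are separated between these groups only through the nga libraries, by a fit with lane as a term. That fit builds the 35S:NGA difference from WT out of 35S:NGA 3 against nga 3 and nga 1 and 2 against WT. The lane term takes up 35S:NGA 1 and 2. As the choice of members used nga and WT, the fit gives only descriptions for them. MIOX4 was at a log2 difference of 3.12 and MIOX1 at -1.56 in 35S:NGA against WT. Of all tested genes, 14 were called in place of 27. The library nga 2 stood apart in clock genes, with CCA1 at 132 RPKM and LHY at 115 RPKM against at most 2.86 for either gene in the other 7 libraries. In whole carpels, fewer cells of a type and less RNA per cell cannot be told apart.

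The 4 genes lie on 4 chromosomes. In TAIR10.1, MIOX1 spans chr1:4968134-4970311 on the minus strand, MIOX2 chr2:8530865-8533779 on the minus strand, MIOX4 chr4:13297695-13300444 on the plus strand and MIOX5 chr5:22927230-22929717 on the minus strand. MIOX1 has 7 exons in its longest coding transcript and the other genes have 11 each, and the coding sequences run from 945 bases in MIOX5 to 1026 bases in MIOX1. MIOX4 and MIOX5 were the most alike, with 81.4% identical bases over 942 aligned coding bases, while the other 5 pairs were 68.0% to 73.2% identical. The longest stretch that MIOX4 and MIOX5 transcripts share without a mismatch was 38 bases, at coding bases 907 to 944 of MIOX4 and 895 to 932 of MIOX5. It is printed here because reads lying wholly inside it, which must be of 38 bases or fewer, could belong to either gene.
MIOX4 and MIOX5, shared stretch: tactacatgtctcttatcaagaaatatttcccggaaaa
How the authors' counting treated such reads is not given in the sources used here. The other pairs shared at most 26 bases in a row.

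The promoters of MIOX4 and MIOX1 are printed because these genes had the values most clearly apart between WT and 35S:NGA, in opposite directions. Each is the window from 250 bases before to 50 bases after the annotated start, 5′ to 3′ on the gene's own strand, read from the RefSeq copy of TAIR10.1, at chr4:13297445-13297744 for MIOX4 and chr1:4970262-4970561 for MIOX1. Capitals mark matches to the 6 motifs searched.
MIOX4 promoter: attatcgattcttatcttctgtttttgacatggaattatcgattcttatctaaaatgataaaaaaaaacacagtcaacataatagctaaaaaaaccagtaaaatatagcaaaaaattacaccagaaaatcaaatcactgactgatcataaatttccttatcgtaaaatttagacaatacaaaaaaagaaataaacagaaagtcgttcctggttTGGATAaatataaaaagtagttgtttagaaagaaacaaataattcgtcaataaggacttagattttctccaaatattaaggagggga
MIOX1 promoter: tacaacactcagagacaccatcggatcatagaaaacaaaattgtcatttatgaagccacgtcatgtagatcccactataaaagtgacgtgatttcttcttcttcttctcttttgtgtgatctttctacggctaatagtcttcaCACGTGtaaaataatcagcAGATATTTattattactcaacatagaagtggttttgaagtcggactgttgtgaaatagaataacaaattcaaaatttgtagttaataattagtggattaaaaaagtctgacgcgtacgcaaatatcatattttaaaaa
Both strands were searched, and the motifs were chosen with the expression values known. They were CACGTG (the G-box of bZIP and bHLH factors), CACCTG and CACTTG (bound by B3 factors such as NGATHA proteins), ACTCAT (bound by S1-group bZIP factors), TATCCA (a sugar-response element known from rice amylase genes) and AAATATCT (the evening element of clock-regulated genes). Some of these letters can overlap in a sequence, but no matches overlapped in the 4 promoters. The MIOX4 capitals are a match to TATCCA on the opposite strand, at 37 to 32 bases before the start, a motif held by 16.1% of the 27443 promoters of the same length. The MIOX1 capitals are CACGTG, at 107 to 102 bases before the start (7.68% of promoters), and AAATATCT on the opposite strand, at 88 to 81 bases before it (5.65%). MIOX5 held ACTCAT (14.7% of promoters), at bases 44 to 49 counted from the start, and MIOX2 held none of the 6. CACCTG (3.31% of promoters) and CACTTG (11.2%) were in none of the 4 windows. These matches are descriptions of letters and not of bound sites.

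MIOX4 was a minor transcript in WT carpels and the leading oxygenase transcript in nga. Its level was 5.25 and 7.50 RPKM in the WT libraries, 88.5, 187 and 159 RPKM in nga 1 to 3, and 41.5, 20.0 and 77.2 RPKM in 35S:NGA 1 to 3. All nga libraries stood above all 35S:NGA libraries, and all 35S:NGA libraries stood above both WT libraries. The means were 6.37 ± 1.60 RPKM in WT (SD, n = 2), 145 ± 50.6 in nga (SD, n = 3) and 46.2 ± 28.9 in 35S:NGA (SD, n = 3). These values rested on 273 and 369 reads in WT and on 933 to 10296 reads in the mutant and overexpressor libraries. As folds of the WT mean, nga 1 was at 13.9, nga 2 at 29.3 and nga 3 at 24.9.

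Against WT, the log2 difference of RPKM + 1 of MIOX4 in nga was 4.25, the difference for which the family was chosen. It was 4.15 among the 4 libraries of lane 6 and 4.04 without nga 2, the library with the high clock genes. The share of all 17786 tested genes called in nga against WT was 16.9% (3008 genes), with 9.26% higher and 7.65% lower, and 29.4% of genes had every nga value above every WT value (27.7% below). In 35S:NGA the log2 difference of MIOX4 against WT was 2.50 ± 0.52 (SE), with an adjusted p of 0.0874 by limma with Benjamini-Hochberg adjustment over all genes tested, so it did not pass the threshold of 0.05. It was higher in 3 of 3 libraries than in either WT library. Of all tested genes, 0.152% (27 genes) were called in 35S:NGA against WT, 0.0843% higher and 0.0675% lower, and 23.3% had every 35S:NGA value above every WT value. Of the 4 oxygenase genes 0 were called there by limma, while MIOX1 and MIOX4 had an unadjusted p under 0.05, as did 20.4% of all tested genes, and voom on recovered reads also called 0. The mean of 35S:NGA was 7.25 times the WT mean, and the libraries ranged from 3.13 in 35S:NGA 2 to 12.1 in 35S:NGA 3. This comparison uses the same WT libraries that entered the choice of the gene, so both differences share those libraries. Between the overexpressor and the mutant, MIOX4 was lower in 35S:NGA by a log2 difference of -1.76, given as a description beside 12.8% of all tested genes with every 35S:NGA value below every nga value (13.6% above). Within lane 8 it was at 77.2 RPKM in 35S:NGA 3 and 159 RPKM in nga 3.

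**Figure D1:**
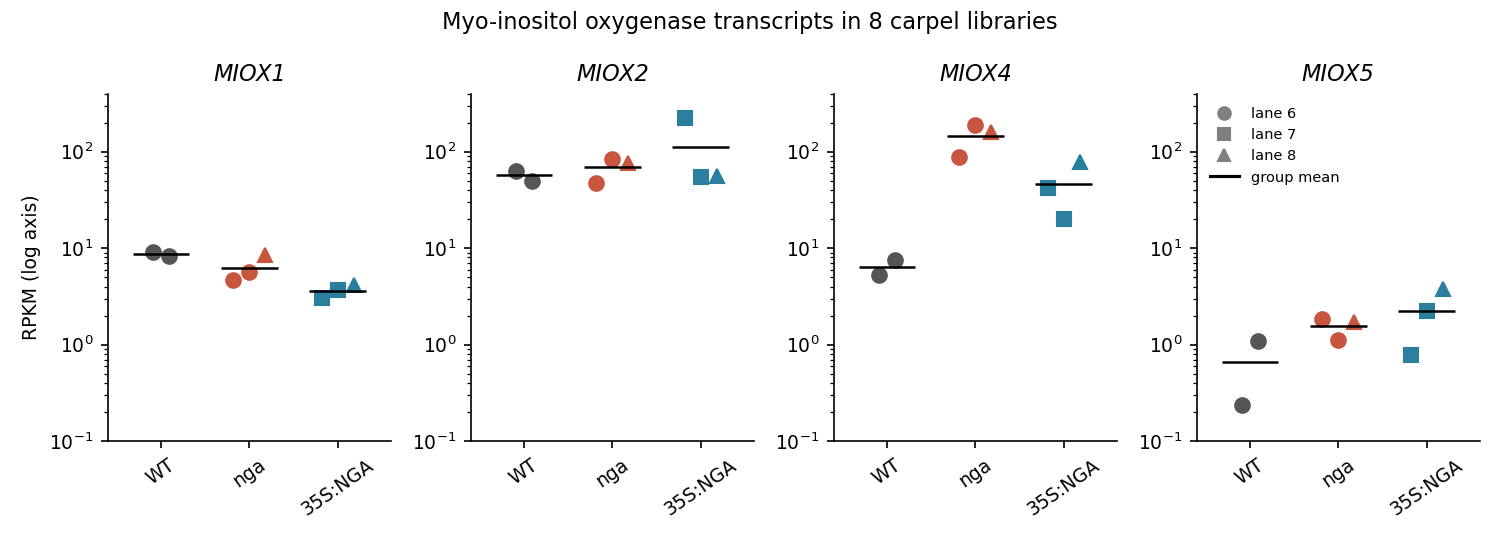
RPKM of the 4 oxygenase genes on a log axis, in 2 WT, 3 nga and 3 35S:NGA libraries. Points are libraries, their shape is the sequencing lane and black bars are group means. The 3 nga points of MIOX4 lie between 88.5 and 187 RPKM, above every other point of that gene, and the 3 35S:NGA points of MIOX1 lie between 3.062 and 4.097 RPKM, below every other point of that gene.

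MIOX2 was the most abundant oxygenase transcript in WT. Its level was 63.4 and 50.0 RPKM in WT, 46.9, 83.9 and 76.8 RPKM in nga, and 222, 54.0 and 55.7 RPKM in 35S:NGA. The 3 groups overlapped, and the mean of 111 ± 96.5 RPKM in 35S:NGA (SD, n = 3) rested on a single library, since 35S:NGA 2 and 3 lay within the range of WT. The WT mean was 56.7 ± 9.48 RPKM (SD, n = 2) and the nga mean 69.2 ± 19.6 RPKM (SD, n = 3). The log2 difference of 35S:NGA from WT was 0.63 ± 0.57 (SE, limma, adjusted p = 0.558) and turned to -0.04 without 35S:NGA 1. It was -0.30 with lane as a term, a fit in which 35S:NGA 3 is the only overexpressor library that counts, compared through nga. The nga difference from WT was 0.25, a description.

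MIOX1 was lowest in the overexpressor. Its level was 9.22 and 8.26 RPKM in WT, 4.65, 5.60 and 8.40 RPKM in nga, and 3.062, 3.690 and 4.097 RPKM in 35S:NGA. All 35S:NGA libraries lay below all others, while nga 3 lay between the WT libraries and nga 1 and 2 lay below both. The means were 8.74 ± 0.679 (SD, n = 2), 6.22 ± 1.95 (SD, n = 3) and 3.62 ± 0.522 RPKM (SD, n = 3). The log2 difference of 35S:NGA from WT was -1.08 ± 0.22 (SE), lower in 3 of 3 libraries, with an adjusted p of 0.0860 by limma, above the threshold. Every 35S:NGA value lay below every WT value in 23.3% of all tested genes. The call depended on the other libraries in the fit, since the adjusted p was 0.0372 with the 2 groups fitted alone, 0.0366 without nga 3 and 0.0451 without both lane 8 libraries. In nga the log2 difference from WT was -0.46, a description.

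MIOX5 was the least abundant member. Its level was 0.239 and 1.09 RPKM in WT, 1.86, 1.11 and 1.70 RPKM in nga, and 0.786, 2.21 and 3.73 RPKM in 35S:NGA. The nga values lay above the higher WT value, that of nga 2 only just, and those of 35S:NGA ran from within the WT range to above it. Only 10 to 134 reads per library lay behind these levels. The log2 difference of 35S:NGA from WT was 0.90 ± 0.40 (SE, limma, adjusted p = 0.255), and it understates the change of so low a gene because of the 1 RPKM added before the logarithm. It was 1.65 with 0.1 RPKM added (adjusted p = 0.238). MIOX4 and MIOX5 did not share their order of libraries, since nga 2, the library with the most MIOX4 reads (10296), held 49 MIOX5 reads, and 35S:NGA 3, with 3458 MIOX4 reads, held 134.

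The gene that supplied most of the oxygenase transcripts was MIOX2 in WT and MIOX4 in nga. The summed level of the 4 genes was 78.1 and 66.9 RPKM in WT, 142, 277 and 245 RPKM in nga, and 267, 79.8 and 141 RPKM in 35S:NGA. MIOX4 made up 6.71% and 11.2% of that sum in the WT libraries, 62.3%, 67.4% and 64.6% in those of nga, and 15.5%, 25.0% and 54.9% in those of 35S:NGA. MIOX2 made up 81.2% and 74.8% in the WT libraries, 33.1%, 30.2% and 31.3% in those of nga, and 83.1%, 67.6% and 39.6% in 35S:NGA. The 3 nga libraries were close to each other in these shares although their summed levels differed, whereas the 3 35S:NGA libraries were spread from a WT-like share to nearly that of nga. MIOX4 RPKM divided by MIOX2 RPKM was 0.0827 and 0.150 in the WT libraries, 1.89, 2.23 and 2.06 in those of nga, and 0.187, 0.370 and 1.39 in those of 35S:NGA. The high summed level of 35S:NGA 1 came from MIOX2 and those of the nga libraries came mostly from MIOX4.

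**Figure D2:**
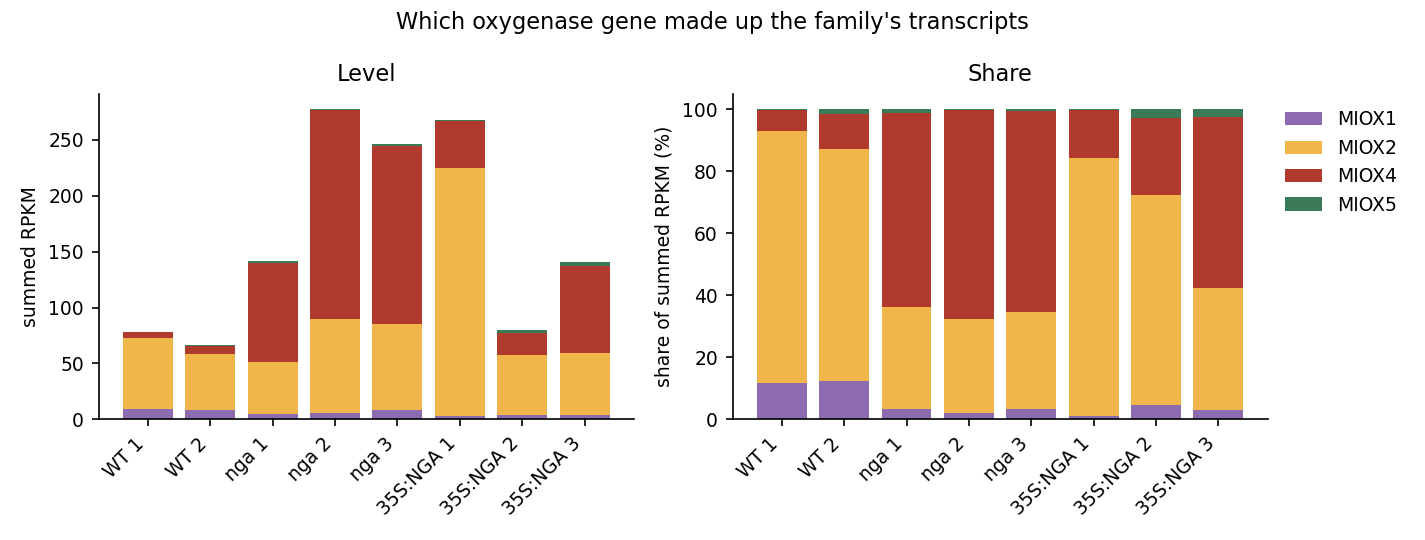
Summed RPKM of the 4 oxygenase genes in each of 8 libraries, with each gene's part stacked (left axis from 0), and the same parts as a percent of the library's sum (right). MIOX4 takes 62.3% to 67.4% in the nga libraries and 6.71% and 11.2% in WT, and the tall bar of 35S:NGA 1 is mostly MIOX2.

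Ordered by level in WT, MIOX2 stood first, MIOX1 and MIOX4 followed, and MIOX5 was last, with no overlap between neighbours within the 2 WT libraries. In nga, MIOX4 stood above MIOX2, MIOX1 and MIOX5 in every library. In 35S:NGA, MIOX2 stood above MIOX4 in libraries 1 and 2 and below it in library 3, so the order of these genes differed within the group. Across the 8 libraries Pearson's r between log2(RPKM + 1) of MIOX4 and the other members was 0.19 for MIOX2, -0.30 for MIOX1 and 0.49 for MIOX5, as descriptions over libraries that share group and lane.

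The genes whose levels followed MIOX4 most closely were ranked by Pearson's r of log2(RPKM + 1) over the 8 libraries, among 6712 genes that have a symbol in the reference and average 5 RPKM or more in 1 of the groups or in several. MIOX4 had 158 genes above an r of 0.9, MIOX5 53, MIOX1 27 and MIOX2 1, and as groups and lanes are shared these are descriptions. The closest to MIOX4 were TAF15 (0.99), a TBP-associated factor, RGTB2 (0.98), a Rab geranylgeranyl transferase subunit, and BZIP9 (0.97), a group C bZIP transcription factor. BZIP9 was at 15.4 and 10.9 RPKM in WT, 128, 185 and 117 RPKM in nga, and 52.4, 28.0 and 67.5 RPKM in 35S:NGA. It had the same order of groups as MIOX4 and, like MIOX4, its lowest overexpressor value in 35S:NGA 2. Genes picked by this ranking share the member's pattern by selection. Likenesses named here and for the other members are therefore no separate results. TAF15 had the higher r over a far narrower range, from 17.8 RPKM in WT 1 to 28.4 RPKM in nga 2. The next were AtSec20 (0.97), RMA1 (0.97), a RING membrane-anchored ubiquitin ligase, SNG1 (0.96), the enzyme that makes sinapoylmalate, ARA-2 (0.96), a small GTPase, and AP19 (0.96), an adaptor subunit.

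For MIOX5 the closest were PGA4 (0.99), a polygalacturonase, RALFL19 (0.99), a small secreted peptide, and VGD1 (0.98), a pollen pectin methylesterase. PGA4 was at 17.1 and 37.3 RPKM in WT, 90.4, 52.2 and 66.9 RPKM in nga, and 34.2, 97.2 and 190 RPKM in 35S:NGA. MIOX5 and PGA4 were both lowest in WT 1 and highest in 35S:NGA 3. The mature pollen markers had summed levels of 36.3 to 79.0 RPKM in WT, 101 to 181 RPKM in nga and 86.0 to 313 RPKM in 35S:NGA. Of the 11 tested pollen markers 0 were called in 35S:NGA against WT by limma or by voom, 8 had an unadjusted p under 0.05 there by either, and their median log2 difference was 1.23, beside 20.4% of all tested genes at such a p by limma. By limma the 8 became 0 when WT 1 was left out, 4 when 35S:NGA 2 was, 5 when 35S:NGA 3 was and 4 when both lane 8 libraries were. AGP11, an arabinogalactan protein gene of pollen, was listed at 0 in 6 libraries. The part of pollen RNA in the MIOX5 values was not tested. The markers of tapetum and microspores summed to 14.9 to 41.1 RPKM, and those of petals and stamens to 14.9 to 21.6 RPKM, over all libraries. The tapetum and microspore sums were 36.6 RPKM in WT 1 and 14.9 RPKM in WT 2. Of that list A9, ACOS5 and CYP703A2 were highest in WT 1, at 10.8, 2.53 and 1.17 RPKM. Elsewhere they reached at most 0.658, 0.990 and 0.192 RPKM. The list's other genes were not highest in WT 1. The part of anther RNA in the WT 1 values was not tested. The 8 carpel markers summed to 397 and 401 RPKM in WT, 429 to 508 in nga and 408 to 483 in 35S:NGA.

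For MIOX1 the closest were LOX2 (0.97), the chloroplast lipoxygenase of jasmonate synthesis, CRK42 (0.97), a receptor-like kinase, and MBP2 (0.97), a myrosinase-binding protein. LOX2 was at 319 and 398 RPKM in WT, 129, 156 and 333 RPKM in nga, and 83.0, 90.6 and 141 RPKM in 35S:NGA. Like MIOX1, it was at a WT-like level in nga 3 alone among the mutant libraries. For MIOX2 the closest was PHT4;2, a plastid phosphate transporter, at an r of 0.90, followed by WIT2 (0.87), a nuclear envelope protein, and FC1 (0.85), a protein kinase, with 35S:NGA 1 highest for each of the 3.

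MIOX4 was also set beside a list of sugar-starvation genes, most of them known to rise when sugar is scarce, together with the energy-sensing kinases KIN10 and KIN11 and the transcription factor BZIP11. This list and the pathway lists below were chosen with earlier results of these data known. Their counts of calls are therefore descriptions and no independent support. Of 12 tested sugar-starvation genes 7 were called in nga against WT by limma, each of them higher, beside 9.26% of all genes higher. The list's median log2 difference was 1.51 in nga and 1.16 in 35S:NGA, where the medians of all tested genes were 0.00 and 0.02. SEN1, a senescence and dark-induced gene, rose by a log2 difference of 7.31 ± 0.72 (SE, limma, adjusted p = 0.00359), from 1.60 and 1.18 RPKM in WT to 293, 687 and 264 in nga. BCAT-2, a branched-chain amino acid aminotransferase, rose by 4.87 ± 0.75 (adjusted p = 0.0127) and TPS8, a trehalose phosphate synthase-like protein, by 2.22 ± 0.36 (adjusted p = 0.0144). The other 4 called were ASN1, DRM1, TPS11 and BZIP63, with log2 differences of 3.89, 2.46, 1.69 and 1.34. Not called were BZIP1 (1.26), KIN10 (0.27), KIN11 (0.26) and BZIP53 (-0.37). BGLU30 was listed but too low to be tested, at 0.344 and 0.167 RPKM in WT and 0.152, 0.460 and 0.326 RPKM in nga. BZIP11 was not called by limma, at -1.78 ± 0.76 in nga (adjusted p = 0.132) and -1.75 ± 0.76 in 35S:NGA (adjusted p = 0.245). It was called lower in nga with lane as a term, in lane 6, without lane 8 and without nga 3. These settings all compare nga 1 and 2 with WT and are not separate support. In nga 3 the BZIP11 level of 18.1 RPKM lay between the WT values of 17.8 and 25.2 RPKM. SEN1 was also the only tested gene of the pathway lists (64 genes listed) called in 35S:NGA against WT, where its log2 difference was 5.52 ± 0.72 (SE, limma, adjusted p = 0.0451), at 205, 35.2 and 173 RPKM. That call was lost under 10 of 19 alternatives. It was lost with lane as a term (adjusted p = 0.0980), with 5 RPKM added (0.0658), with no filter on low values (0.0665), with voom (0.120) and when either WT library, nga 1, 35S:NGA 1 or 35S:NGA 3 was left out (adjusted p 0.0833 to 0.384). Like MIOX4, SEN1 had its highest level in nga 2 and its lowest overexpressor level in 35S:NGA 2. Unlike MIOX4, it was lowest among nga in nga 3 and highest among overexpressors in 35S:NGA 1. MIOX4 was lowest among nga in nga 1 and highest among overexpressors in 35S:NGA 3. ASN1, a glutamine-dependent asparagine synthetase, fell by 2.54 on the log2 scale from nga to 35S:NGA (SE 0.57, limma, adjusted p = 0.0431), a call lost under 11 of 19 alternatives. The summed level of the list was 470 and 361 RPKM in WT, 2780, 3700 and 1650 RPKM in nga, and 1670, 654 and 1350 RPKM in 35S:NGA. The markers of green tissue summed to 3930 and 3990 RPKM in WT, 4730 to 7840 in nga with nga 2 highest, and 4310 to 8370 in 35S:NGA with 35S:NGA 3 highest. Their part in the MIOX4 and sugar-starvation values was not tested.

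**Figure D3:**
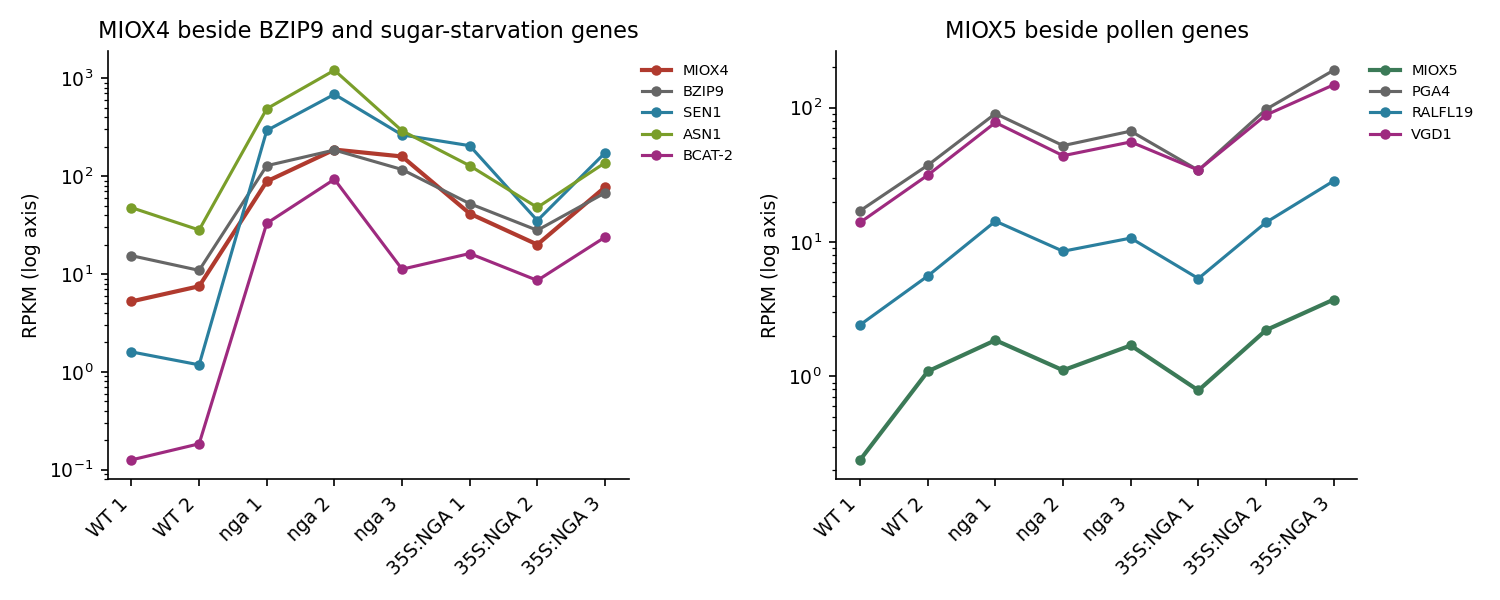
RPKM on a log axis in each of 8 libraries, joined by lines for reading only, of MIOX4 with BZIP9, SEN1, ASN1 and BCAT-2 (left) and of MIOX5 with PGA4, RALFL19 and VGD1 (right). The MIOX4 line lies low in WT, high in nga and between them in 35S:NGA, and the MIOX5 line is lowest in WT 1 and highest in 35S:NGA 3, as are the 3 pollen genes.

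Around the oxygenases, some genes that make myo-inositol were lower in nga than in WT and some that move it were higher. Of 6 genes of inositol synthesis 3 were called by limma, each of them lower, beside 7.65% of all genes lower, and the list's median log2 difference was -0.56. MIPS3, which makes inositol phosphate from glucose 6-phosphate, was at 12.9 and 15.5 RPKM in WT, 2.50, 1.22 and 4.52 RPKM in nga, and 5.03, 5.84 and 7.25 RPKM in 35S:NGA. It fell by 2.11 on the log2 scale in nga (SE 0.34, limma, adjusted p = 0.0140). The inositol phosphate phosphatase VTC4 (-0.79 ± 0.16, adjusted p = 0.0221) and IMPL2 (-0.49 ± 0.12, adjusted p = 0.0308), a related phosphatase of histidine synthesis, were also lower. As IMPL2 is counted, the 3 calls and the list's median are not of inositol synthesis alone. The 3 calls became 1 when nga 1 or nga 2 was left out. MIPS2, a second inositol phosphate synthase gene, was not called (0.81 ± 0.54, adjusted p = 0.310), at 18.4 and 22.9 RPKM in WT, 34.5, 77.7 and 18.3 RPKM in nga. The summed level of the 6 genes was 113 and 129 RPKM in WT and 92.4, 143 and 75.2 RPKM in nga, so the sums overlapped. With lane as a term or without the lane 8 libraries MIPS2 was called higher in nga, and both settings compare only nga 1 and 2 with WT. Of 3 inositol transporters, whose median was 1.36, 2 were called higher in nga by limma, beside 9.26% of all genes higher. INT4 of the plasma membrane was higher by 1.36 ± 0.23 (adjusted p = 0.0156) and INT1 of the vacuole by 1.56 ± 0.42 (adjusted p = 0.0430). The INT1 call was lost under 8 of 20 alternatives.

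Downstream of the oxygenases, the listed genes called in nga against WT were lower in nga. The lists leave out AT5G14470, at first taken as a glucuronokinase, as its reference name is galactokinase. That choice was made with its levels known, and every nga library had more of it than either WT library. No test of AT5G14470 is given, so the shared direction holds only for the genes kept. Glucuronokinase GLCAK1, the next enzyme of the route, was at 14.8 and 15.5 RPKM in WT, 16.2, 11.1 and 12.2 RPKM in nga, and 16.4, 19.7 and 17.4 RPKM in 35S:NGA, and passed the test in no comparison. USP, the UDP-sugar pyrophosphorylase that completes UDP-glucuronate, was lower in nga by a log2 difference of -0.69 ± 0.16 (SE, limma, adjusted p = 0.0300). In the parallel route 2 of 4 UDP-glucose dehydrogenase genes (median -0.74) were called lower, UGD3 (-1.27 ± 0.18, adjusted p = 0.0112) and UGD2 (-0.85 ± 0.24, adjusted p = 0.0478), the latter lost under 11 of 20 alternatives. UGD3 was at 36.9 and 37.7 RPKM in WT, 15.3, 12.4 and 17.4 RPKM in nga, and 30.0, 42.1 and 34.3 RPKM in 35S:NGA, so it was lowest in nga, where MIOX4 was highest, and its 35S:NGA values spanned those of WT. It was higher in 35S:NGA than in nga by 1.18 ± 0.16 (SE, limma, adjusted p = 0.00616), in a comparison with 5.34% of genes called, 3.72% of them higher and 1.62% lower as shares of all tested genes. Among 14 genes that use UDP-glucuronate (median -0.43), AXS2, which makes UDP-apiose, was the only gene called in nga against WT (-0.56 ± 0.16, adjusted p = 0.0482), beside 7.65% of all genes lower, and was lost under 9 of 20 alternatives. GAE6, an epimerase to UDP-galacturonate, was called higher in 35S:NGA against nga (1.24 ± 0.23, adjusted p = 0.0217).

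In other inositol branches and in ascorbate synthesis, 5 genes were called in nga against WT, where 9.26% of all tested genes were higher and 7.65% lower. DIN10, a raffinose synthase family gene, was the only call among 4 tested of 7 galactinol and raffinose genes in nga against WT (2.39 ± 0.49, SE, limma, adjusted p = 0.0224). Of 9 phosphoinositide and inositol phosphate genes, IPK2a, an inositol polyphosphate kinase, was higher by 0.57 ± 0.14 (adjusted p = 0.0320) and ITPK3, an inositol trisphosphate kinase, had -0.61 ± 0.15 (adjusted p = 0.0341). The ascorbate list holds genes of the GDP-mannose route. GDP-galactose phosphorylase VTC5 rose by 0.81 ± 0.17 (adjusted p = 0.0233) and GDP-mannose epimerase GME by 1.09 ± 0.30 (adjusted p = 0.0452) in nga, as 2 of 6 genes, the GME call being lost under 10 of 20 alternatives. VTC5 fell by 0.94 from nga to 35S:NGA (SE 0.15, limma, adjusted p = 0.0126). The calls in nga against WT depended on having both WT libraries, since leaving out WT 1 gave 41 and leaving out WT 2 gave 47 calls over all genes in place of 3008, and of the 17 pathway calls named in that comparison 16 lost significance without WT 1 and 16 without WT 2.

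**Figure D4:**
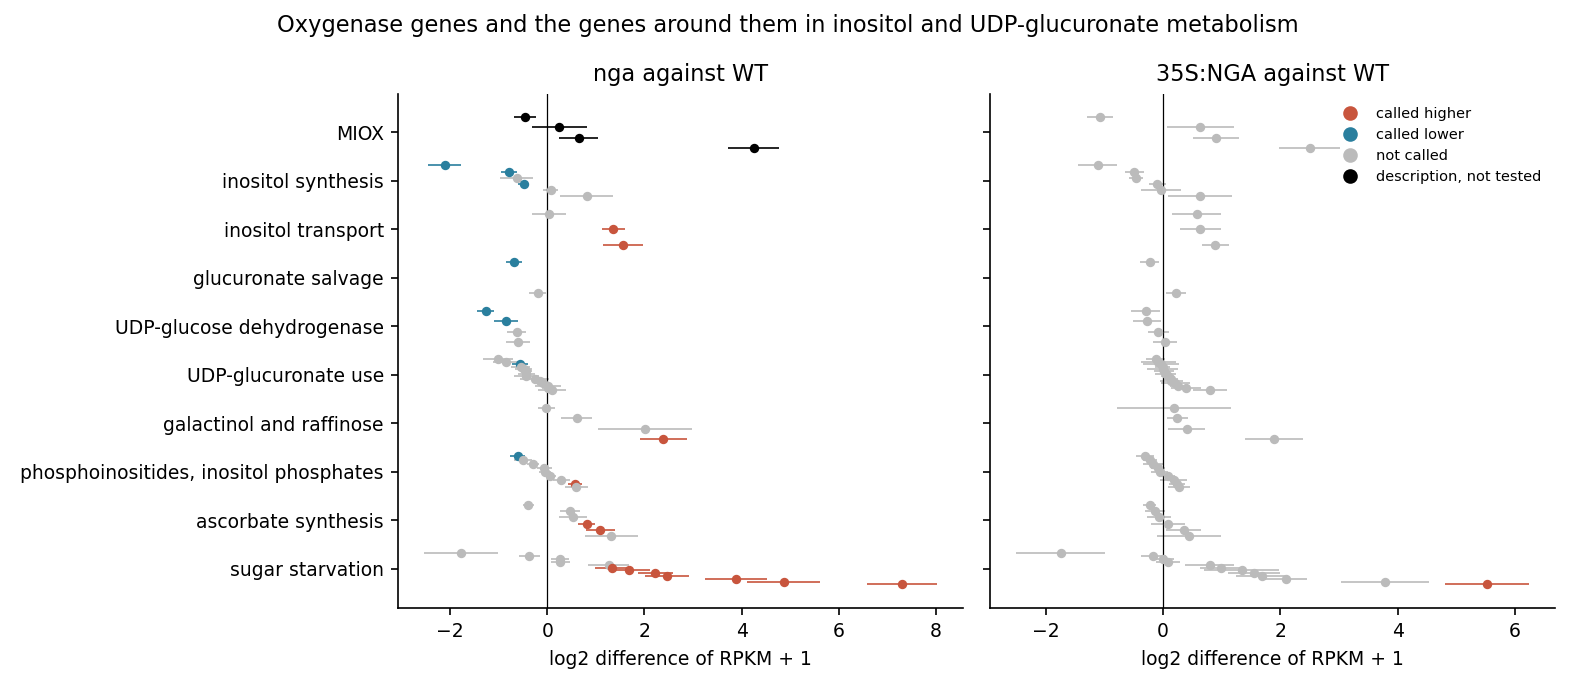
Log2 difference of RPKM + 1 with its SE (bars) for the oxygenase genes and for each tested gene of the pathway lists, in nga against WT (left) and 35S:NGA against WT (right). Coloured points passed an adjusted p of 0.05 by limma, and black points are oxygenase genes in the comparison that chose them, with no test. MIOX4 is the point at 4.25 on the left and 2.50 on the right, and MIPS3 is the lowest of the inositol synthesis points on the left, at -2.11.

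The neighbours of MIOX4 on chromosome 4 did not have its pattern of levels. GolS6, a galactinol synthase gene 6590 bases before it, was at 0.562 to 2.56 RPKM in all libraries. PFK3, a phosphofructokinase gene that begins 333 bases after it, was at 34.3 and 34.5 RPKM in WT, 26.0, 15.7 and 22.3 RPKM in nga, and 29.6, 24.4 and 22.4 RPKM in 35S:NGA. Its log2 difference was -0.69 ± 0.21 in nga against WT (SE, limma, adjusted p = 0.0558). Of the genes flanking the other members, AT2G19790 beside MIOX2 was called, higher in nga by 0.81 ± 0.20 (SE, limma, adjusted p = 0.0327).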

How the data were processed

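Carpel RNA-seq libraries were made with Illumina TruSeq kits and sequenced on a HiSeq2000, per the labels' protocols. The deposited values are RPKM that the authors computed, per the file headers, written with decimal commas for 33590 entries per library. The submitters' processing notes name FastQC and TAIR10, with the aligner and counter not given in the sources used here. Lane numbers stand in the column headers. Left out were 6374 entries that name no gene model, each at 0, and 18 entries of 9 repeated loci. Of 27197 loci, 26710 matched the TAIR10.1 annotation.

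The 17786 loci that reached 1 RPKM in 2 or more libraries were tested as log2(RPKM + 1) with limma 3.58.1 in R 4.3.3, with a mean-variance trend, all 8 libraries, 3 groups and Benjamini-Hochberg adjustment at 0.05. As the files hold RPKM, a test on counts was not the main one. Values of all 17786 tested loci came out as whole reads (tolerance 0.01) for 1 gene length and 1 total per library. These recovered reads gave the reads per gene and the voom alternative, which was chosen after the data were seen. Read numbers alone cover counting error only, while the voom fit also uses the spread between libraries. The fit was tested on simulated data. Nothing in the labels says that libraries of a group came from separate plants, so p measures only the spread between them, which may be technical.

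The members and lists were chosen with earlier results of these data known. Named were, per list and comparison, up to 3 called genes of smallest p, the 8 genes most like MIOX4 and the 3 most like each other member. The 4 other sugar-starvation genes called, KIN10, KIN11, BZIP1, BZIP11, BZIP53 and BGLU30 were named for completeness. So were MIPS2, GLCAK1, GolS6, PFK3, AT2G19790, A9, ACOS5, CYP703A2 and the genes of the figures. AT5G14470, listed as a glucuronokinase, was left out because the reference names it as a galactokinase. Its levels had been seen by then, at 0.333 and 0.154 RPKM in WT, 2.11, 6.38 and 1.81 RPKM in nga, and 1.27, 0.395 and 1.45 RPKM in 35S:NGA. ITPK3 and GalDH, whose reference symbols also differ from those listed, were kept on the descriptions in the files. Promoters and motifs were read with Python 3.11.15 and coding sequences were aligned with Biopython 1.88.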

Additional observations from a re-analysis of the deposited data

How the results depend on the processing

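In 35S:NGA against WT, MIOX1, MIOX4 and MIOX5 kept their direction under the alternatives run, and MIOX4 (log2 2.01 to 3.12, adjusted p 0.0696 to 0.451) and MIOX5 (0.34 to 1.95, adjusted p 0.148 to 0.686) passed the threshold under none. With a mean of at least 5 RPKM required, MIOX5 was not tested. MIOX1 passed with only the groups compared (-1.08), without the lane 8 libraries (-1.16) and without nga 3 (-1.08), and ran from -1.16 to -0.99 with a library left out. MIOX2 ran from -0.04 to 0.97 with a library left out, negative without 35S:NGA 1. It turned to -0.30 with lane as a term. For every member that fit rests on 35S:NGA 3 and the nga libraries, so its values are descriptions. The causes were not tested. In nga against WT, the fits with lane as a term, in lane 6, without lane 8 and without nga 3 rest on the same difference. It is that of nga 1 and 2 from WT, so their counts of calls are not separate support. The calls in nga against WT, 3008, were 1744 with only those groups, 6005 with lane as a term, 5562 in lane 6 and 6031 without lane 8, and 41 to 5135 with a library left out, lowest without WT 1. Those in 35S:NGA against WT, 27, were 81 with 0.1 RPKM added, 56 with a mean of at least 5 RPKM, 74 with quantile normalization, 344 with only those groups, 14 with lane as a term, 334 without lane 8, 9 with voom, and 1 to 284 with a library left out, lowest without either WT library and highest without nga 3. Of these calls 55.6% were higher, against 35.1% with quantile normalization and 42.4% with library medians set equal. Those in 35S:NGA against nga, 949, were 608 with a mean of at least 5 RPKM, 576 with only those groups, 145 with lane as a term, 2071 without lane 8, and 355 to 2517 with a library left out. A library left alone in its group was assumed to vary like the others. Of 435 refits of the 22 named pathway calls, 324 kept the call, 111 lost it and 0 reversed. Few reads limit MIOX5.

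Whether equal replicate numbers pair the libraries could not be decided. Deviations from group means correlated at -0.26 to 0.37 over same-numbered libraries. Between WT and 35S:NGA they correlated at 0.35 and 0.37 for equal numbers, and at -0.37 and -0.35 with numbers 1 and 2 crossed. The deviations of 2 WT libraries are mirror images, so these values are not separate observations. With a replicate block the mutant had 3892 calls and the overexpressor 22 against WT, and 1092 genes were called between mutant and overexpressor. The block lost 5 of the 22 named pathway calls, SEN1 in 35S:NGA among them (adjusted p = 0.0782), and added a lower call for BZIP11 in nga. No oxygenase gene changed its call in 35S:NGA against WT, with 2.22 for MIOX4 and -1.22 for MIOX1.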
